A study of Mus musculus with 9 samples.

Results

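The genes described here encode the ligand insulin-like growth factor 2 (Igf2), the IGF and insulin receptors (Igf1r, Insr), the receptor substrates Irs1 and Irs2, and 5 IGF-binding proteins (Igfbp3 to Igfbp7). They were chosen by name, as the rows of the deposited gene count table that carry these 10 symbols, out of 35275 genes listed. All 10 passed the filter on low counts that left 13901 genes to be tested. RNA-seq of poly-A RNA was made from about 20 mg of gastrocnemius, a calf muscle of mostly fast-contracting fibres, from female mice 12 weeks old. All mice were of the NSG strain (NOD scid gamma), an immunodeficient background that lacks mature lymphocytes, and their genotype is labelled wild type. All received tail-vein injections of extracellular vesicles (EVs), membrane-bound particles shed by cells, at about 10 µg per injection, 2 injections per week for 5 weeks and 10 in total, and muscle was collected 2 days after the last one. One group, MCF-10A EV (4 libraries), was given EVs of a non-tumorigenic line of breast epithelium, and the other, MDA-MB-231 EV (5 libraries), EVs of a breast cancer line, both lines being human. Both groups carry the same background and both received EVs, so a difference between them cannot be assigned to either kind of EV.

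Insulin and the IGFs bind receptor tyrosine kinases on the cell surface, which phosphorylate the docking proteins IRS-1 and IRS-2. These recruit PI3-kinase, and through AKT the signal raises glucose uptake and protein synthesis in muscle and holds back the FoxO factors that drive muscle wasting genes. The IGF-binding proteins hold IGFs outside the cell and either block their access to the receptor or store and release them, while IGFBP-7 binds IGFs weakly and is found in the walls of blood vessels.

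Total gene counts ranged from 13943465 to 25195826 per library, the smallest being MCF-10A EV replicate 2. Markers of muscle fibres summed to between 119101 and 190815 CPM (counts scaled to library size, with TMM factors) in the 9 libraries, so the markers of the labelled tissue were present. Transcripts of pancreatic islets were present in replicates 2 and 3 of MCF-10A EV and in replicates 1, 3 and 4 of MDA-MB-231 EV, where Ins2 had 639 to 2322 counts, against 5 to 7 counts in the other 4 libraries. Their part in the results was not tested beyond a fit with their presence as a term, in which each of the 10 genes kept the sign of its difference. In bulk tissue, fewer cells of a type and less RNA per cell cannot be told apart. The labels do not say whether a library is 1 mouse, so p-values measure the spread between these libraries.

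None of the 10 genes passed the test between the groups, which was edgeR's quasi-likelihood test with Benjamini-Hochberg adjustment over the 13901 genes. With that test 0% of all genes tested passed at an adjusted p under 0.05. At an unadjusted p under 0.05 there were 4 of the 10, against 12.8% of all tested genes. Igfbp7, Igfbp6 and Irs2 were the 3 with higher values in MDA-MB-231 EV, where 5.95% of all genes were, and Irs1 was the 1 with lower values, where 6.86% were. Igfbp7 was the 1 gene of the 10 whose values did not overlap between the groups, against 5.40% of all genes, made up of 2.22% with MDA-MB-231 EV higher and 3.17% with it lower. DESeq2, run as an alternative, called 1 of the 9 genes for which it gave an adjusted p, Irs1. Over all genes it gave an adjusted p for 7503 and called 3.05% of these. With limma voom 0 of 10 were called, against 0% of all genes. Log2 fold changes compare MDA-MB-231 EV with MCF-10A EV throughout, positive where the former was higher, and 8 of the 10 were above 0, with a median of 0.21, against 53.1% of all genes and a median of 0.020. With library sizes left unscaled the median over all genes was 0.15, so directions below are read relative to the scaled values. The TMM factors were 0.910 to 0.985 in MCF-10A EV and 1.02 to 1.06 in MDA-MB-231 EV, so the scaling itself differed between the groups. Unscaled, the log2 fold change of Irs1 was -0.44. That of Igf2 was then 0.31, with an unadjusted p of 0.0113 and an adjusted p of 0.208 in edgeR.

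**Figure D1:**
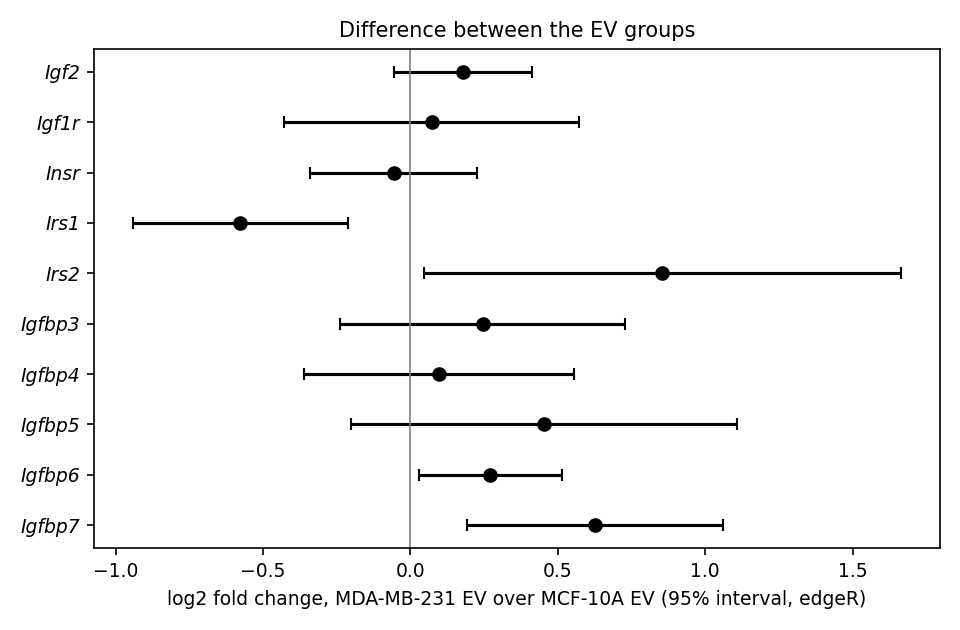
Log2 fold change of each of the 10 genes, MDA-MB-231 EV relative to MCF-10A EV, from edgeR on all 9 libraries. Points are estimates and bars 95% intervals. The intervals of Irs1, Irs2, Igfbp6 and Igfbp7 lie to one side of 0, with Irs1 alone on the negative side, and none of the 10 genes passed after adjustment.

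Igf2, the fetal growth factor that adult muscle still expresses at a lower level, had overlapping levels in the groups. The gene lies on chromosome 7, 142650766 to 142666816 (mm10, minus strand). It was at 46.6, 58.9, 53.1 and 48.2 CPM in MCF-10A EV replicates 1 to 4. In replicates 1 to 5 of MDA-MB-231 EV it was at 59.6, 49.9, 66.8, 56.6 and 59.3 CPM. The highest value was in MDA-MB-231 EV replicate 3 and the lowest in MCF-10A EV replicate 1, and the ranges overlapped. The mean was 51.7 ± 5.52 CPM (SD, n = 4) in MCF-10A EV, against 58.4 ± 6.10 CPM (SD, n = 5), with a log2 fold change of 0.18 ± 0.11 (SE; adjusted p in edgeR = 0.495). Igf2 varied the least of the 10 genes, with a biological coefficient of variation of 13.1%, where the median of tested genes was 17.6%. The antisense gene Igf2os, which overlaps it, had at most 12 counts in any library.

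The other ligands did not differ beyond their spread either. Igf1, the main IGF of adult muscle, was at 33.96 ± 24.2 CPM (SD, n = 4) in MCF-10A EV and 32.4 ± 8.27 CPM (SD, n = 5) in MDA-MB-231 EV, with a log2 fold change of -0.061 ± 0.40 (SE). In MCF-10A EV its values were 25.2, 69.7, 24.8 and 16.1 CPM, so the wide spread came from replicate 2. In MDA-MB-231 EV it was at 24.9, 23.2, 42.7, 37.4 and 33.6 CPM. The insulin genes Ins1 and Ins2 had log2 fold changes of 0.53 ± 1.6 and 0.38 ± 1.7 (SE), with values that followed which libraries held islet transcripts, and as near-identical genes they may share reads. H19, the maternally expressed noncoding RNA next to Igf2, was at 821, 2580, 2530 and 2279 CPM in MCF-10A EV while MDA-MB-231 EV had 3281, 3827, 3623, 2402 and 2492 CPM. Its log2 fold change was 0.61 ± 0.30 (SE; adjusted p in edgeR = 0.417), and MCF-10A EV replicate 1 was far under the other 8 libraries.

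**Figure D2:**
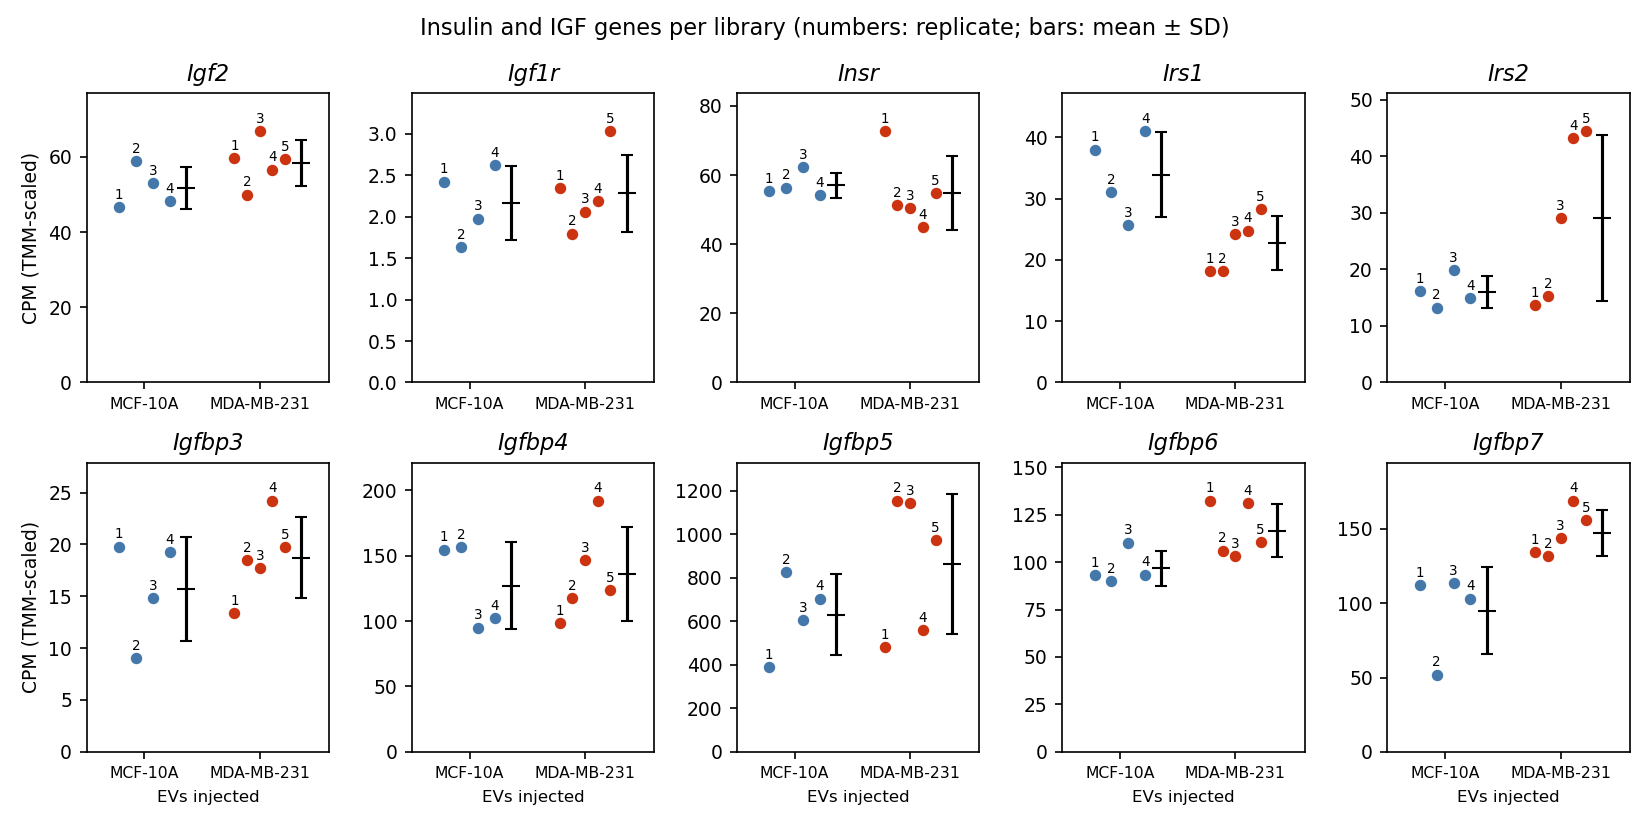
CPM of the 10 genes in each library (vertical axes start at 0; blue MCF-10A EV, red MDA-MB-231 EV; numbers are replicates; bars are mean ± SD, n = 4 and n = 5). The groups are apart for Igfbp7, whose MDA-MB-231 EV libraries sit between 132 and 169 CPM and the others between 51.9 and 113 CPM, and they overlap for the other 9 genes.

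The receptors showed the smallest differences of the set. Insr, the insulin receptor (chromosome 8, 3150922 to 3279617, minus strand), was at 55.4, 56.3, 62.2 and 54.1 CPM in MCF-10A EV. Its values in MDA-MB-231 EV were 72.7, 51.2, 50.3, 44.8 and 54.8 CPM, where replicate 1 was the highest and replicate 4 the lowest of all 9 libraries. The log2 fold change was -0.057 ± 0.13 (SE; adjusted p in edgeR = 0.883) with a 95% interval of -0.34 to 0.23, and its sign turned positive with unscaled library sizes and without MDA-MB-231 EV replicate 4. Igf1r, the IGF-1 receptor (plus strand of chromosome 7, 67952859 to 68226780), was low, at 2.42, 1.63, 1.98 and 2.62 CPM in MCF-10A EV on 21 to 50 counts. In MDA-MB-231 EV it was at 2.34, 1.79, 2.06, 2.19 and 3.03 CPM on 38 to 65 counts. These values interleaved, and the log2 fold change of 0.071 ± 0.23 (SE; adjusted p in edgeR = 0.919) has a 95% interval of -0.43 to 0.57. Its sign changed when MCF-10A EV replicate 2 or MDA-MB-231 EV replicate 5 was left out. The deposited length of Igf1r is 26.7% of its exon bases in GENCODE M21, so its counts may leave out reads. Igf2r, which takes up IGF-2 for degradation and does not signal as a kinase, was at 119 ± 14.7 CPM (SD, n = 4) against 97.1 ± 9.44 CPM (SD, n = 5), with a log2 fold change of -0.29 ± 0.11 (SE; adjusted p in edgeR = 0.324).

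The receptor substrates had log2 fold changes of opposite sign, neither of them past the edgeR threshold. Irs1, the docking protein tied most closely to insulin's metabolic action in muscle (chromosome 1, 82233101 to 82291416, minus strand), was at 38.0, 31.0, 25.7 and 41.0 CPM in MCF-10A EV replicates 1 to 4. It was at 18.2, 18.1, 24.2, 24.8 and 28.3 CPM in replicates 1 to 5 of MDA-MB-231 EV. The ranges overlapped only because MCF-10A EV replicate 3 was under MDA-MB-231 EV replicate 5. The mean was 33.9 ± 6.89 CPM (SD, n = 4) in MCF-10A EV, against 22.7 ± 4.45 CPM (SD, n = 5). The log2 fold change was -0.58 ± 0.17 (SE), with a 95% interval of -0.94 to -0.21 and an edgeR adjusted p of 0.260. DESeq2 gave an adjusted p of 0.0499 for it, where the adjusted p over all 23 alternatives ranged from 0.0499 to 0.665. The unadjusted p stayed under 0.05 in each of the 9 fits that left out a library. Beside it, the summed CPM of muscle fibre markers was lower in MDA-MB-231 EV, at 119101 to 141987 against 155472 to 190815. Of the 9 markers 6 had log2 fold changes below 0, with a median of -0.20, and none was at 0 in every library. The lowest was Myh4 at -0.73 ± 0.17 (SE), whose group mean was 40408 CPM against 67144 CPM, and Actn3 was at -0.64 ± 0.19. The 3 above 0 were Mb at 0.94 ± 0.38, Myh2 at 0.27 ± 0.45 and Myh7 at 0.068 ± 0.91 (SE). The sum was weighted to Myh4, so it does not show a fall of all fibre markers. The part of fibre makeup in the Irs1 difference was not tested.

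Irs2, the docking protein best known from liver and pancreatic islets (chromosome 8, 10986980 to 11008458, minus strand), was at 16.2, 13.2, 19.9 and 14.8 CPM in MCF-10A EV. MDA-MB-231 EV libraries had 13.7, 15.3, 29.0, 43.2 and 44.4 CPM. Replicates 3, 4 and 5 of MDA-MB-231 EV stood above all other libraries, while replicates 1 and 2 were within the MCF-10A EV range. The mean was 16.03 ± 2.84 CPM (SD, n = 4) in MCF-10A EV, against 29.1 ± 14.7 CPM (SD, n = 5), with a log2 fold change of 0.85 ± 0.36 (SE; adjusted p in edgeR = 0.366; 95% interval 0.044 to 1.67). Irs2 varied the most of the 10 genes, with a biological coefficient of variation of 36.5%. Its unadjusted p was under 0.05 in 3 of the 9 fits that left out a library. With the presence of islet transcripts as a term the log2 fold change was 0.85 ± 0.39 (SE), with an unadjusted p in edgeR of 0.0595, against 0.0407 without the term. Islet transcripts were present in 2 of the 3 libraries with high Irs2. They were also present in MCF-10A EV replicates 2 and 3 and in MDA-MB-231 EV replicate 1, where Irs2 was at 13.2, 19.9 and 13.7 CPM. MDA-MB-231 EV replicate 5, with the highest Irs2, had 6 counts of Ins2.

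**Figure D3:**
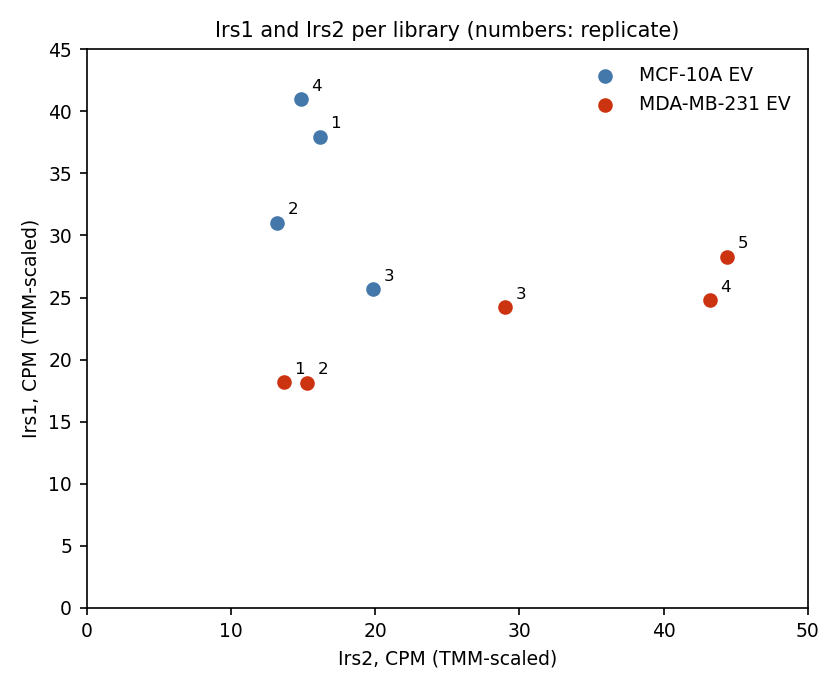
Irs1 (vertical axis) against Irs2 (horizontal axis) in CPM, 1 point per library, numbered by replicate. MCF-10A EV libraries lie at 13.2 to 19.9 CPM of Irs2 over a range of Irs1 values. MDA-MB-231 EV libraries spread along Irs2 from 13.7 to 44.4 CPM at 18.1 to 28.3 CPM of Irs1. Their replicates 3, 4 and 5 are above replicates 1 and 2 on both axes.

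Within a library the balance of the substrates was compared per length, as FPKM (counts scaled to the gene length and to the library total). Irs1 over Irs2 was 1.03, 1.03, 0.569 and 1.21 in MCF-10A EV, a mean of 0.962 ± 0.276 (SD, n = 4). It was 0.585, 0.522, 0.368, 0.252 and 0.280 in MDA-MB-231 EV, a mean of 0.401 ± 0.147 (SD, n = 5). Irs1 was the more abundant in 3 of 4 MCF-10A EV libraries and in 0 of 5 MDA-MB-231 EV libraries, and the ranges touched through MCF-10A EV replicate 3. This ratio was chosen with earlier results known and was not tested. Over all 9 libraries the Pearson r of log2 CPM of the 2 genes was -0.057, a description over libraries that share the group difference. Within MDA-MB-231 EV, replicates 3, 4 and 5 were above replicates 1 and 2 in both genes, and replicate 5 was the highest in both. Within MCF-10A EV, replicate 3 had the lowest Irs1 and the highest Irs2.

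The promoters of both substrate genes are shown because the genes had log2 fold changes of opposite sign while the sequences at their starts share 3 of the 13 motifs searched. Windows of 300 bases, 250 before and 50 after the RefSeq start (GRCm38.p6, both genes on the minus strand, sequence on the gene's strand), span chr1:82291390-82291689 for Irs1 and chr8:11008880-11009179 for Irs2. Capitals mark matches on either strand to TGTTTTG (a form of the core of the insulin response element), CACGTG (an E-box) and GGGCGG (a GC box).
Irs1: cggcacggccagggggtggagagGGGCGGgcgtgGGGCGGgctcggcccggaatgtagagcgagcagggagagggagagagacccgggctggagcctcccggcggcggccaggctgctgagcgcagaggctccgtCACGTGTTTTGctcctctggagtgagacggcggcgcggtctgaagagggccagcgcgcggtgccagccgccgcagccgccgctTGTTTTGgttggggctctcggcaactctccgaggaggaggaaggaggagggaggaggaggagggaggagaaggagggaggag
Irs2: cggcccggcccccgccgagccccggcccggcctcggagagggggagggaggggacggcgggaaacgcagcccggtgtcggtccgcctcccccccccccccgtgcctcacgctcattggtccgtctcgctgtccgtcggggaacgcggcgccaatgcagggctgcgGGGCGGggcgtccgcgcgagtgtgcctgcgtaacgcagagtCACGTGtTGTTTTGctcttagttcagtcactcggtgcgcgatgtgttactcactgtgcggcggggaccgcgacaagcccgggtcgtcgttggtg
Both windows hold CACGTG beside TGTTTTG, with 2 bases shared between the matches in Irs1 and 1 base between them in Irs2. In Irs1 they begin at bases -115 and -111 from the start, with another TGTTTTG at -32, and in Irs2 at -44 and -37. TGTTTTG was found in 6.28% and CACGTG in 7.15% of 32851 promoter windows, and both together in 0.408%. No other pair of motifs was counted, and this pair is held by both windows, so its share is not a test. GGGCGG was found in 35.7%. Of the 10 genes 9 had a window in the table. No match to GTAAACA (1 form of FoxO site, in 3.65% of windows) was found in any of them. Its absence does not exclude other forms of FoxO site. A match is a description of the letters and not a binding site, and the RefSeq start of Irs2 lies upstream of the gene span in the deposited table.

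The binding proteins other than Igfbp3 were the most abundant of the set per length, and all 5 had log2 fold changes above 0 under each scaling tried, with Igfbp4 turning below 0 in 2 of the 9 fits that left out a library. Igfbp7 (chromosome 5, 77349240 to 77408045, minus strand) was at 112, 51.9, 113 and 103 CPM in MCF-10A EV. In MDA-MB-231 EV it was at 135, 132, 144, 169 and 156 CPM. Each MDA-MB-231 EV library was above each MCF-10A EV library, and MCF-10A EV replicate 2 was far under the rest. The mean was 95.1 ± 29.2 CPM (SD, n = 4) in MCF-10A EV, against 147 ± 15.5 CPM (SD, n = 5). The log2 fold change was 0.63 ± 0.20 (SE), with a 95% interval of 0.19 to 1.06 and an edgeR adjusted p of 0.287. Without MCF-10A EV replicate 2 it was 0.42, with an unadjusted p under 0.05 there as in the other 8 fits that left out a library. Polr2b, which overlaps the end of Igfbp7 by 85 bases on the opposite strand, had a log2 fold change of -0.064.

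Igfbp6, which prefers IGF-2 over IGF-1 (plus strand of chromosome 15, 102144362 to 102149511), was at 93.0, 90.1, 110 and 93.3 CPM in MCF-10A EV. Its values in MDA-MB-231 EV were 132, 106, 103, 131 and 111 CPM. Only MCF-10A EV replicate 3 reached into the range of the other group. The log2 fold change was 0.27 ± 0.11 (SE; adjusted p in edgeR = 0.343) with a 95% interval of 0.028 to 0.51, and the unadjusted p was under 0.05 in 4 of the 9 fits that left out a library.

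Markers of endothelium and connective tissue had higher mean sums in MDA-MB-231 EV beside these genes, and their part in the Igfbp differences was not tested. Endothelial markers summed to 401 to 502 CPM in MCF-10A EV and 483 to 663 CPM in MDA-MB-231 EV, with 9 of 11 above 0 and a median log2 fold change of 0.36. Tendon markers summed to 505 to 1196 CPM and 1363 to 1706 CPM, with 6 of 7 above 0 and a median of 0.58. Fibroblast markers summed to 2717 to 6791 CPM and 4161 to 7778 CPM, with 9 of 10 above 0 and a median of 0.36. No marker of these lists was at 0 in every library.

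The promoters of Igfbp7 (chr5:77407996-77408295, minus strand) and Igfbp6 (chr15:102143936-102144235, plus strand), the binding-protein genes with an unadjusted p under 0.05, differ in base composition. They come from RefSeq on the same build, with capitals for GGGCGG and, in Igfbp6, for TATAAA on the opposite strand.
Igfbp7: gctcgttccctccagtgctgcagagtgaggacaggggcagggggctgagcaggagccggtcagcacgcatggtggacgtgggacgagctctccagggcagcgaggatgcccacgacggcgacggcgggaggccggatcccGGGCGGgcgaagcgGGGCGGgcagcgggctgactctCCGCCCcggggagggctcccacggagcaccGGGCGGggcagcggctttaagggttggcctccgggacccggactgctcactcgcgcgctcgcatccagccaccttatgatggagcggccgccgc
Igfbp6: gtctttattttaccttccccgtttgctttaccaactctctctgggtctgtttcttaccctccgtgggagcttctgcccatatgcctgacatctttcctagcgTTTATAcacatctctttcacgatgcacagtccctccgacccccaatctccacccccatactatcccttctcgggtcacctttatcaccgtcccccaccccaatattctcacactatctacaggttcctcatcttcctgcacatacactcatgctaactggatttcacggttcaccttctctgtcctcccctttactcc
The Igfbp7 window is 73.3% G and C with 33 CpG dinucleotides and 4 matches to GGGCGG. The Igfbp6 window is 49.7% G and C with 8 CpG dinucleotides, close to the median window of 52.7% and 7 CpG, and its match to TATAAA, held by 13.6% of windows, begins at base -148. The RefSeq start of Igfbp6 also lies upstream of the deposited gene span.

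Igfbp5, the most abundant binding protein of the set per length (chromosome 1, 72857932 to 72874884, minus strand), was at 389, 826, 605 and 704 CPM in MCF-10A EV. In MDA-MB-231 EV it was at 481, 1156, 1144, 560 and 974 CPM. Replicates 2, 3 and 5 of MDA-MB-231 EV were above all other libraries and replicates 1 and 4 were not. The log2 fold change was 0.45 ± 0.30 (SE; adjusted p in edgeR = 0.534), with a 95% interval of -0.20 to 1.11 and a biological coefficient of variation of 31.2%. It was 0.28 without MCF-10A EV replicate 1.

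Igfbp4, a binding protein that mainly inhibits IGF action (plus strand of chromosome 11, 99041244 to 99054392), was at 155, 157, 94.9 and 102 CPM in MCF-10A EV. MDA-MB-231 EV libraries had 98.6, 118, 147, 192 and 124 CPM. The ranges overlapped almost wholly, and the log2 fold change of 0.096 ± 0.21 (SE; adjusted p in edgeR = 0.878; 95% interval -0.36 to 0.55) turned negative without MCF-10A EV replicate 3 or MDA-MB-231 EV replicate 4. Igfbp3, the main IGF carrier of the blood (chromosome 11, 7206086 to 7213923, minus strand), was at 19.8, 9.02, 14.8 and 19.3 CPM in MCF-10A EV. In MDA-MB-231 EV it was at 13.4, 18.5, 17.7, 24.2 and 19.8 CPM, with a log2 fold change of 0.24 ± 0.22 (SE; adjusted p in edgeR = 0.663; 95% interval -0.24 to 0.73). Its lowest value was in MCF-10A EV replicate 2, and without that library the log2 fold change was 0.061.

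Per length, the 5 binding proteins together were at 263, 282, 319 and 314 FPKM in MCF-10A EV and at 351, 462, 457, 429 and 453 FPKM in MDA-MB-231 EV. The FPKM carry no scaling between libraries, and after division by each library's TMM factor the sums were 289 to 324 and 341 to 447, also apart. This sum was formed with earlier results known and was not tested. Igfbp5 made up 33.7% ± 9.48 (SD, n = 4) and 34.1% ± 10.4 (SD, n = 5) of it, Igfbp6 28.0% ± 2.09 and 25.9% ± 5.88, and Igfbp7 25.3% ± 7.88 and 29.6% ± 3.82. Igfbp4 held 10.8% ± 3.29 and 8.58% ± 2.11, and Igfbp3 2.10% ± 0.707 and 1.87% ± 0.337. The makeup of the sum differed between the groups by less than the larger SD of each share.

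**Figure D4:**
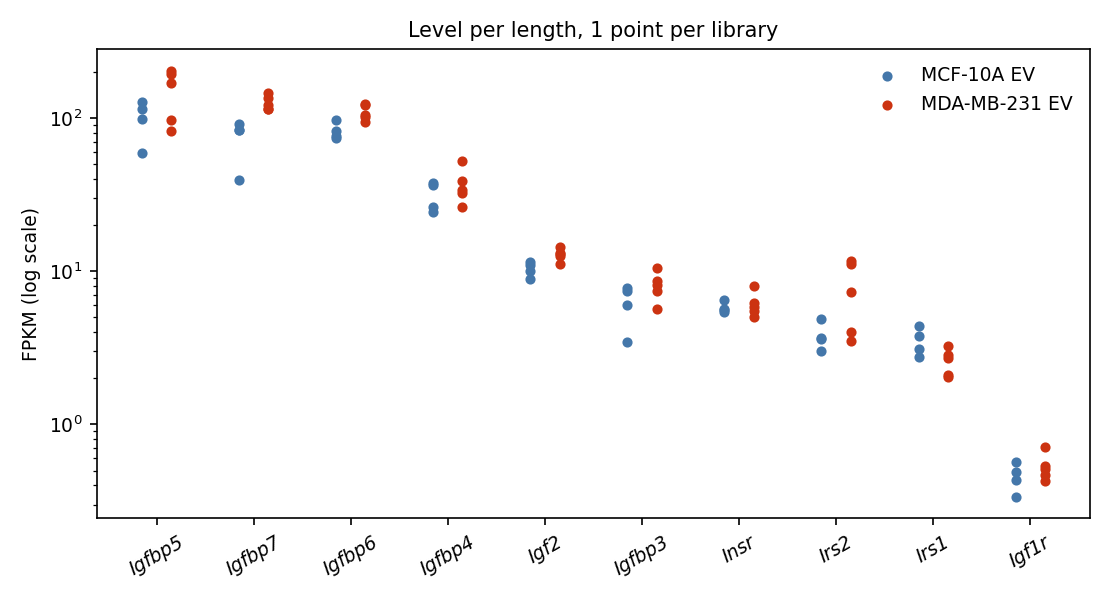
FPKM of each gene in each library on a log axis, ordered by the mean over 9 libraries (blue MCF-10A EV, red MDA-MB-231 EV). Igfbp5, Igfbp7 and Igfbp6 lie at the top with means of 128, 103 and 97.4 FPKM, and Igf1r at the bottom with 0.498 FPKM.

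The order of levels per length ran from Igfbp5 at 128 ± 51.2 FPKM (mean ± SD over 9 libraries) through Igfbp7 at 103 ± 32.4, Igfbp6 at 97.4 ± 17.9, Igfbp4 at 34.4 ± 8.66 and Igf2 at 11.8 ± 1.70. Below these came Igfbp3 at 7.22 ± 1.995 FPKM, Insr at 5.96 ± 0.877, Irs2 at 5.88 ± 3.40, Irs1 at 3.001 ± 0.749 and Igf1r at 0.498 ± 0.106. The steps from Igfbp6 to Igfbp4, Igfbp4 to Igf2, Igf2 to Igfbp3 and Irs1 to Igf1r held in 9 of 9 libraries. Those between Igfbp5, Igfbp7 and Igfbp6, and between Igfbp3, Insr, Irs2 and Irs1, held in 6 of 9 each over both groups. By group, Irs2 was above Irs1 in 1 of 4 MCF-10A EV and 5 of 5 MDA-MB-231 EV libraries, and Insr was above Irs2 in 4 of 4 and 2 of 5. Igfbp3 was above Insr in 2 of 4 and 4 of 5, Igfbp5 above Igfbp7 in 3 of 4 and 3 of 5, and Igfbp7 above Igfbp6 in 2 of 4 and 4 of 5. Insr was 8.68 to 16.5 times as abundant per length as Igf1r in every library. These levels rest on the deposited gene lengths. That of Igf1r is 4489 bases where the exons of GENCODE M21 cover 16791. For Irs2 it is 4024 of 6323, and for Insr 9355 of 13746. Reads outside the deposited gene models may not have been counted, so the counts may be too low as well, which was not tested.

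The rest of the pathway, in lists of genes other than the 10, had 0 genes past the edgeR threshold. Of the other ligands and receptors, 4 were tested. Ins1 and Ins2, whose values followed the islet transcripts, were the 2 above 0, and Igf1 and Igf2r were the 2 below 0. The median log2 fold change of 0.16 ranged from -0.17 without MCF-10A EV replicate 4 to 0.61 without MCF-10A EV replicate 2. The medians of the adaptors, brakes and FoxO targets given next also changed sign with 1 library left out, ranging from -0.016 to 0.035, from -0.017 to 0.054 and from -0.033 to 0.13. Of 16 tested adaptors and PI3-kinase subunits, 8 were above and 8 below 0, with a median log2 fold change of 0.028. Nck2 at -0.25 ± 0.13 (SE), Sos2 at -0.27 ± 0.16 and Shc1 at 0.23 ± 0.16 had the smallest p. Among 18 brakes of insulin and IGF signalling, 10 were above and 8 below 0, with a median of 0.014. Socs2, a feedback inhibitor of growth hormone signalling, was at 29.4 ± 15.6 CPM (SD, n = 4) against 16.1 ± 5.10 CPM (SD, n = 5), with a log2 fold change of -0.87 ± 0.34 (SE; adjusted p in edgeR = 0.338). Fbxo40, a muscle ubiquitin ligase that targets IRS-1 for degradation, had one of -0.34 ± 0.15 (SE; adjusted p in edgeR = 0.358), and Nedd4 one of -0.21 ± 0.11.

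The targets of FoxO, which insulin signalling represses, were split as well. Of 13, 7 were above and 6 below 0, with a median of 0.038, and Cited2 at -0.27 ± 0.15 (SE), Cdkn1a at 0.54 ± 0.32 and Ccng2 at 0.20 ± 0.12 had the smallest p. Fbxo32 and Trim63, the ubiquitin ligases of muscle wasting, had log2 fold changes of 0.038 ± 0.17 and -0.051 ± 0.16 (SE), named here although outside the rule for names. Of 14 imprinted growth genes, 10 were above and 4 below 0, with a median of 0.22, with the smallest p for Igf2r and H19, given above, and Dlk1 at 0.61 ± 0.34 (SE). The Igf2 mRNA-binding proteins Igf2bp2 and Igf2bp3 were at -0.40 ± 0.35 and 0.43 ± 0.49 (SE).

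Among 7 tested binding proteins and their regulators outside the set, 3 were above and 4 below 0, and their median of -0.047 ranged from -0.27 without MDA-MB-231 EV replicate 4 to 0.25 without MCF-10A EV replicate 1. Adam12, a metalloprotease that cleaves IGFBP-3 and IGFBP-5, was low, at 0.573 ± 0.0822 CPM (SD, n = 4) and 1.51 ± 0.499 CPM (SD, n = 5), and its groups did not overlap. Its log2 fold change was 1.40 ± 0.33 (SE; adjusted p in edgeR = 0.247), and DESeq2 gave it no adjusted p. Igfbp2 was low, with a log2 fold change of 0.76 ± 0.35 (SE; adjusted p in edgeR = 0.385), and Htra1, a protease that also cleaves IGFBP-5, had one of -0.24 ± 0.14. Igfbp1 had 0 counts in all 9 libraries.

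**Figure D5:**
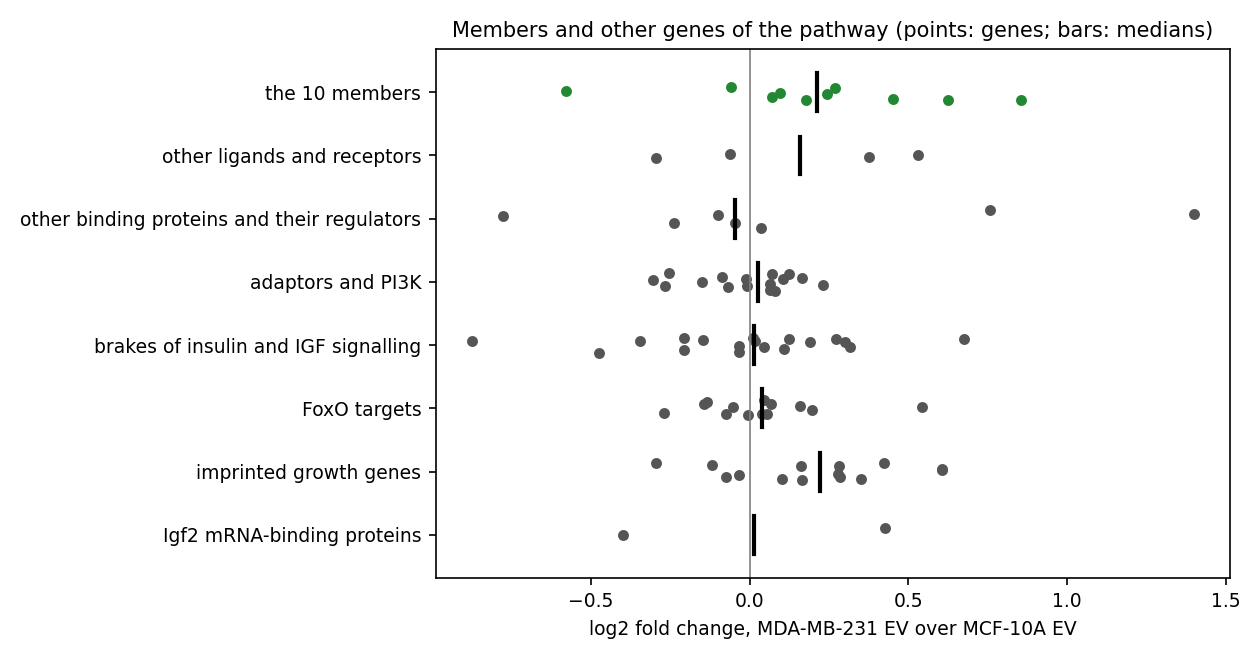
Log2 fold change, MDA-MB-231 EV relative to MCF-10A EV, of the 10 genes (green) and of the tested genes in 7 further lists of the pathway (grey), with black bars at the medians. The medians of adaptors (0.028), brakes (0.014) and FoxO targets (0.038) sit near that of all genes (0.020), and those of the 10 genes and of the imprinted genes are at 0.21 and 0.22.

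The genes most like each of the 10 were taken by Pearson's r of log2 CPM over the 9 libraries among 12826 named genes. This describes libraries that share a group difference, and the r are high by selection and were not tested. Of the genes named below, Casq1 had a mean of 2126 CPM, but Rnd1, Plaur and Cd83 had 2.19, 1.69 and 1.61 CPM. Foxd1 and Vstm2b had 0.638 and 0.680 CPM. Slit2 had a Spearman rank correlation of 0.7 with Igfbp3, under its Pearson r. Irs1 was most like Ehbp1 (r = 0.950), Casq1, the calcium-binding protein of fast fibres (r = 0.938), and Ganc (r = 0.931). Irs2 was most like Kcnab1 and Sec14l1 (r = 0.962 each) and Lrrc32 (r = 0.939). Igfbp7 was most like Rnd1 and Plaur, the urokinase receptor (r = 0.985 and 0.984), and Cd83 (r = 0.975), and Igfbp6 like Gli1, a factor of Hedgehog signalling (r = 0.967), Tmem53 (r = 0.963) and Sod3 (r = 0.950). Igf2 was most like Dok4, Loxl2 and Col8a1 (r = 0.969, 0.959 and 0.954), and Insr like Igfn1, Zdhhc17 and Samd4 (r = 0.970, 0.925 and 0.924). For Igfbp3 it was Slit2 and Adap1 (r = 0.964 and 0.958), for Igfbp4 Foxd1, Rbm47 and Steap4 (r from 0.940 to 0.952), for Igfbp5 Mcm4, Arhgap11a and Fam160b1 (r from 0.919 to 0.945) and for Igf1r Vstm2b, Kdm2a and Secisbp2 (r from 0.889 to 0.937).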

How the data were processed

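Whole-number gene counts per library were deposited by the authors, on mm10. The FPKM were also deposited by the authors and equal the count over the deposited gene length and the library's summed counts, so they carry no scaling between libraries. Per the submitters' processing notes, which give no roles, the tools were STAR 2.5 and TopHat, HTSeq 0.6.1, and edgeR and DESeq2. The annotation release and whether counting used strand are not given in the sources used here, so overlapping genes on opposite strands cannot be told apart.

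Counts were tested with edgeR 4.0.16 (quasi-likelihood F-test, robust, TMM, two-sided) in R 4.3.3, after filterByExpr (minimum count 10, minimum total 15), with group as the term and Benjamini-Hochberg adjustment over all tested genes. Alternatives used DESeq2 1.42.0, limma 3.58.1 (voom, and log2(FPKM + 1) or log2(FPKM + 0.1)), other scalings and filters, the replicate number as a block, a term for islet transcripts (Ins2 above 10 CPM), and fits without libraries. Levels between genes used FPKM and levels between libraries TMM-scaled CPM. The tests were tried on simulated counts, the outcome of which is not given here. Promoters come from RefSeq. Plots used Python 3.11.15 and matplotlib 3.10.9.

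The 10 genes, the pathway and marker lists and the rule for names were chosen with earlier results of these data known. Named were the 10 genes, up to 3 genes of each pathway list with the smallest p, Ins1, Ins2, Igf1, H19 and the 3 genes most like each of the 10, of which 1 is not reported here. Marker lists covered muscle fibres, fibroblasts, endothelium, mural cells, tendon, adipocytes, satellite cells, macrophages, Schwann cells, and pancreatic islet and acinar cells. One listed macrophage marker was not analysed here. Insr had no promoter in the table used.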

Additional observations from a re-analysis of the deposited data

Results flagged for a closer look

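Of 60 groups of values, 6 held a library that stood apart from the others of its group by Dixon's test at the 95% level, which chance alone gives in about 1 of 20 groups. Igfbp7 was at 51.9 CPM in MCF-10A EV replicate 2, where the other 3 libraries were at 103 to 113 CPM. Igfbp6 was at 110 CPM in MCF-10A EV replicate 3, where the others were at 90.1 to 93.3 CPM. Igf1 was at 69.7 CPM in MCF-10A EV replicate 2, against 16.1 to 25.2 CPM in the others. Nedd4, a ubiquitin ligase, was at 587 CPM in the same library, against 454 to 477 CPM. In MDA-MB-231 EV replicate 1, Fbxo40 was at 444 CPM, against 331 to 351 CPM in the other 4 libraries, and the cell cycle inhibitor Cdkn1a at 111 CPM, against 35.0 to 49.7 CPM.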

How the results depend on the processing

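The number of genes called was 0 with edgeR, 229 with DESeq2, and 0 to 2 when 1 library was left out, the 2 being without MCF-10A EV replicate 4. Of the 10 genes DESeq2 called 1, Irs1, at a log2 fold change of -0.59, and 0 were called under the other 22 alternatives. The number with an unadjusted p under 0.05 was 4, and it was 2 without both MCF-10A EV replicates 1 and 2 and from 2 to 5 with 1 library left out, the 2 being without MCF-10A EV replicate 1, MCF-10A EV replicate 4 or MDA-MB-231 EV replicate 4. The sign of Insr turned to 0.075 with unscaled library sizes, 0.054 on log2(FPKM + 1) and 0.060 on log2(FPKM + 0.1), and ranged from -0.18 to 0.0096 with 1 library left out. Igf1r was at -0.0054 without both MCF-10A EV replicates 1 and 2 and from -0.045 to 0.18 with 1 library left out, and Igfbp4 from -0.059 to 0.21. The other 7 genes kept their sign in all 23 alternatives. The cause was not tested. With the replicate number as a block, 0 genes were called, 2 of the 10 had an unadjusted p under 0.05, Irs2 was at 0.52 and Igf1r at -0.034. Same-numbered libraries of the groups correlated at -0.30, -0.18, 0.038 and 0.080 in their deviations, and differently numbered ones at -0.22 to 0.27. These values gave no sign that the numbers pair the libraries, but they cannot exclude it. Igf1r had the lowest counts of the 10 genes, 21 to 65 per library. With the block the median of the other ligands and receptors, a list that holds Ins1 and Ins2, was 0.93.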

Other observations

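Marker lists of other cell types overlapped between the groups in their summed CPM. Mural cell markers summed to 581 to 988 CPM in MCF-10A EV and 664 to 777 CPM in MDA-MB-231 EV, macrophage markers to 75.7 to 162 and 113 to 137 CPM, and satellite cell markers to 32.8 to 53.6 and 24.9 to 37.9 CPM. Adipocyte markers ranged from 28.8 to 110 CPM and from 22.6 to 247 CPM, with the highest sum in MDA-MB-231 EV replicate 4, which also held the highest Schwann cell sum at 567 CPM. Schwann cell markers were otherwise at 128 to 387 CPM in all other libraries. Pancreatic islet markers ranged from 1.21 to 109 CPM and from 1.61 to 146 CPM, while acinar markers were at 0 to 1.63 CPM.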
